A study of Mus musculus with 8 samples.

Results

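The mitochondrial ribosome (mitoribosome) translates the messenger RNAs of the mitochondrial genome, which encode core subunits of the respiratory chain and ATP synthase. Its proteins are made from nuclear genes in the cytosol and imported. They form a small subunit, which decodes the messenger RNA, and a large subunit, which makes the peptide bond. Some have a counterpart at the same place in bacterial ribosomes, and others, classed as mitochondria-specific, do not. T cells enlarge their mitochondria when they are activated, and block of mitochondrial translation is known to impair their function.

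The genes described here are those whose symbol begins with Mrpl or Mrps followed by a number. Symbols came from the RefSeq transcript that each probe was designed on. This rule found 78 of the 19752 genes with a named probe, and it used no measured value. Of the 78, 51 belong to the large subunit and 26 to the small subunit, counting Mrps30 and Mrps18a with the large subunit. The remaining gene, Mrps36, carries the name but encodes a component of a dehydrogenase complex of the citric acid cycle. In all, 77 of the genes were tested, and they were well above background on all 8 arrays. The exception was Mrpl21, whose 1 probe was not well above background on any array, so it was not tested and no level is given for it. These 77 genes are called Mrp genes below.

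Total RNA of mouse splenic T cells was hybridised to single-colour oligonucleotide arrays in 4 groups of 2. Wild-type cells (WT) came from C57BL/6 mice with intact Lsp1. Lsp1-deficient cells (KO) came from mice that carry the Lsp1 -/- alleles throughout the body and were crossed back to C57BL/6 for 10 generations. Cells of each genotype were either in medium or stimulated for 6 h with anti-CD3/CD28 antibodies, which mimic antigen and costimulation. Donor mice, age- and sex-matched, were 8 to 12 weeks of age. Lsp1 (leukocyte-specific protein 1) binds F-actin. Separate mice are not stated for the arrays of a group, so the p-values reflect a spread between arrays that may be technical. The sources used here do not give the method of T cell isolation.

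A level below is log2 of a spot's signal relative to the 75th percentile of signal on the same array, and a difference of 1 is a doubling. Levels of different genes come from different probes and are not set against each other. Errors after ± are standard errors of the fit across all genes (limma, 2 arrays per group), and a gene is called at a Benjamini-Hochberg adjusted p below 0.05 over 15133 genes. Lsp1, the deleted gene, had levels of 7.48 and 7.24 in WT and 3.64 and 3.48 in KO medium arrays, and of 7.06 and 6.99 in WT and 3.69 and 3.65 in KO arrays after stimulation. It was lower in KO cells in medium (-3.79 ± 0.13, adjusted p = 0.00126) and after stimulation (-3.35 ± 0.13, adjusted p = 0.00268). The second difference was -3.39 without stimulated WT replicate 2, with an adjusted p of 0.0601. All 15 T cell markers examined, Cd3e, Cd4 and Cd8a among them, were well above background on every array.

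Both KO arrays numbered 2 stood apart from the other 6. The median of 13 neutrophil and precursor markers, relative to its mean in WT medium, was 4.24 on KO medium replicate 2 and 3.07 on stimulated KO replicate 2. It lay between -1.13 and 0.29 on the other arrays. The summed signal of these markers, in multiples of the 75th percentile, ranged from 172 to 256 (WT) and 192 to 784 (KO) in medium and from 144 to 146 (WT) and 152 to 446 (KO) after stimulation. Csf3r makes up most of that sum on the other 6 arrays. It was lower on the KO arrays numbered 2 (6.76 and 6.63) than elsewhere (6.85 to 7.67). Mmp9 was not clearly raised there (-5.20 and -6.50, against -7.07 to -5.23), and the remaining markers of the list were higher on both than elsewhere. Medians of 13 erythroid and platelet markers (1.76 and 2.50) and of 15 cell cycle genes (1.09 and 1.04) were also high on that pair. On the other 6 arrays these medians lay between -0.62 and 0.53 and between -0.10 and 0.06. The median of 12 monocyte, macrophage and dendritic cell markers was 0.68 and 0.66 on the pair and -0.26 to 0.03 elsewhere. Their summed signal there (198 and 184) lay within the range of the other arrays (173 to 214). T cell marker medians were -0.36 and -0.39 on the pair and 0.10 and -0.22 on the KO arrays numbered 1. On the stimulated WT arrays they were -0.34 and -0.22. The Mrp genes varied less than genes at large in all 4 groups. Their root mean square SD between the arrays of a group was 0.0924 and 0.118 in the KO groups (medium and stimulated), against 0.431 and 0.454 over all genes. In the WT groups it was 0.116 and 0.0505, against 0.253 and 0.25. Unlike the Mrp genes, the genes tested include some not well above background on every array. Deviations of same-numbered arrays from their group means correlated at 0.743 between KO medium and stimulated KO over all genes and at 0.513 over the Mrp genes. The labels do not say whether same-numbered arrays share a cell preparation.

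**Figure D1:**
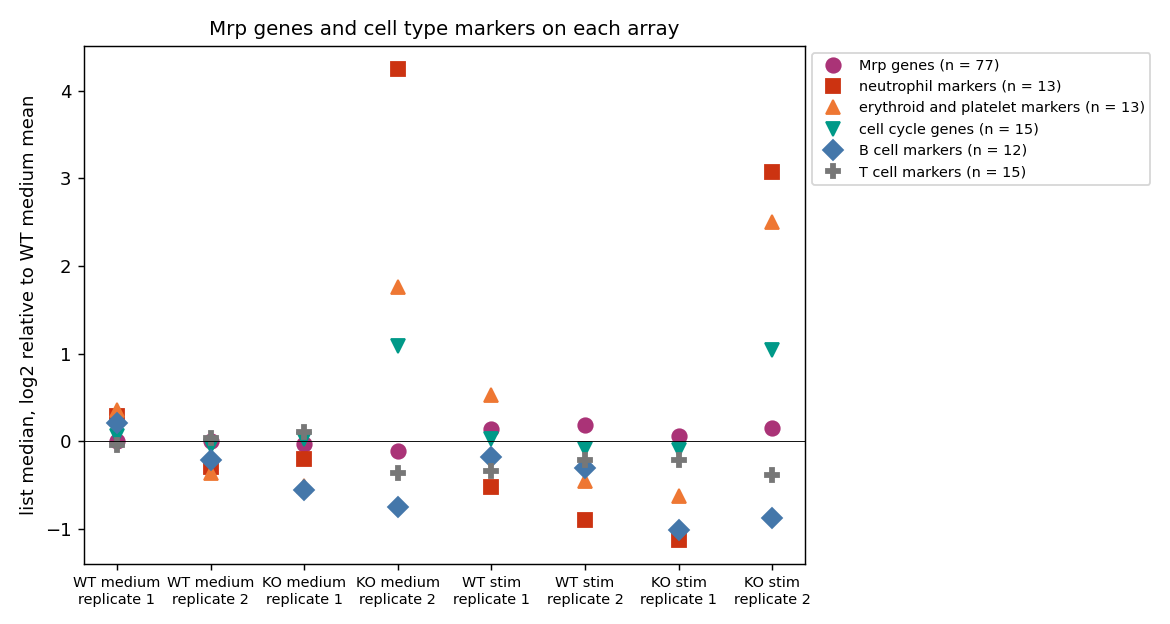
Median of each gene list on each of the 8 arrays, as log2 relative to the mean of the WT medium arrays; each symbol is 1 list on 1 array. The Mrp genes lie between -0.11 and 0.18 on every array, while neutrophil, erythroid and platelet, and cell cycle lists are high on both KO arrays numbered 2.

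Stretches before the start site are shown for 5 members, because the motifs they hold are those of factors known to act on nuclear genes for mitochondrial proteins, and because 4 of the 5 were called on stimulation. Mrpl9 is shown beside them as the uncalled gene with the lowest WT response among those with the same motif in this stretch. They are RefSeq sequences of assembly GRCm38.p6, of 120 bases up to the base before the annotated start, 5′ to 3′ on the gene's strand. Capitals mark the motif that each stretch is shown for.
Mrpl12, chr11:120484517-120484636, plus strand: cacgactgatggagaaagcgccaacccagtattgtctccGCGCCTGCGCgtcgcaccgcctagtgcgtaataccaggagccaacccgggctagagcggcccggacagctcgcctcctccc
Mrpl17, chr7:105811088-105811207, minus strand: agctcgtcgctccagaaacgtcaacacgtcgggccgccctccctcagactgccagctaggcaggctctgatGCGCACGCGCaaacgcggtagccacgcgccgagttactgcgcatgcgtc
Mrpl9, chr3:94443216-94443335, plus strand: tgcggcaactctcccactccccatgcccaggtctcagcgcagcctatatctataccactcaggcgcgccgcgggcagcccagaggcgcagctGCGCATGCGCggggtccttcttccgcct
Mrpl20, chr4:155802758-155802877, plus strand: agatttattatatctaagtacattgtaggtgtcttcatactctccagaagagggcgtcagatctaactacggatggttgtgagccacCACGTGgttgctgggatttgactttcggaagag
Mrpl36, chr13:73330889-73331008, plus strand: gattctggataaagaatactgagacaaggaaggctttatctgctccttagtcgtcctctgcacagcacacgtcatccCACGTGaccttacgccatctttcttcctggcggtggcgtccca

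In Mrpl12, Mrpl17 and Mrpl9 the capitals are the motif of Nrf1 (nuclear respiratory factor 1), GCGC, any base and TGCGC, read on either strand. It spans bases -81 to -72 before the start of Mrpl12, -49 to -40 of Mrpl17 and -28 to -19 of Mrpl9. In Mrpl20 and Mrpl36 they are the E-box CACGTG, which Myc binds, at bases -33 to -28 and -43 to -38. The Mrpl36 stretch also holds, in lower case, the motif of the factor Yy1 (AAGATGGC, read on the other strand) at bases -30 to -23. Mrpl12, Mrpl17 and Mrpl20 were called on stimulation in WT, Mrpl12 and Mrpl36 in KO, and Mrpl9, a large-subunit protein, was called in neither (-0.04 ± 0.13 in WT and -0.31 ± 0.13 in KO).

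The motifs were also counted over windows from 250 bases before to 50 after each start, on both strands, for the 69 members with a RefSeq window. Windows of 27025 genes served as the background, 12089 of them genes tested here. The Nrf1 motif was in 13 member windows (18.8%), against 5.19% of all windows and 9.65% of those of tested genes. The ETS motif CCGGAAGT, bound by Gabpa, was in 12 (17.4%), against 4.31% and 7.64%. The Yy1 motif AAGATGGC was in 12 (17.4%), against 3.19% and 4.52%. The E-box was in 5 (7.25%), against 8.09% and 10.7%, so its share among the members was no higher than in the background. Of the 8 called members with a window, 2 held the E-box, 2 the Nrf1 motif, 2 the Yy1 motif and 0 the ETS motif, and among the other 61 members 3, 11, 10 and 12 held them. Matches of different motifs did not overlap in any member window. These counts describe letters in the windows and carry no test.

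On stimulation in WT cells, 8 Mrp genes were called higher and 0 lower. The 8 were the large-subunit genes Mrpl12, Mrpl15, Mrpl17, Mrpl20 and Mrpl42 and the small-subunit genes Mrps28, Mrps6 and Mrps2. The changes were small, at most 1.74-fold. They amounted to 10.4% of the 77 genes, where 10.3% of all genes tested were called, 6.42% higher and 3.83% lower. That difference in shares was not tested. The median response of the Mrp genes was 0.16, with 58 above 0 and 19 below, and the responses ran from -0.24 to 0.80. Over all genes the median was -0.09.

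In KO cells 7 Mrp genes were called higher and 0 lower, which is 9.09% against a background of 8.13% called, 5.85% higher and 2.27% lower. Their largest change was 1.92-fold. The median response was 0.15, again with 58 above 0 and 19 below, against -0.08 over all genes, and the range was -0.33 to 0.94. Mrpl12, Mrpl15, Mrps28, Mrps6 and Mrps2 were called in both genotypes. These 5 are 62.5% of the WT calls and 71.4% of the KO calls, and over all genes 64.1% and 80.9% of calls were shared.

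**Figure D2:**
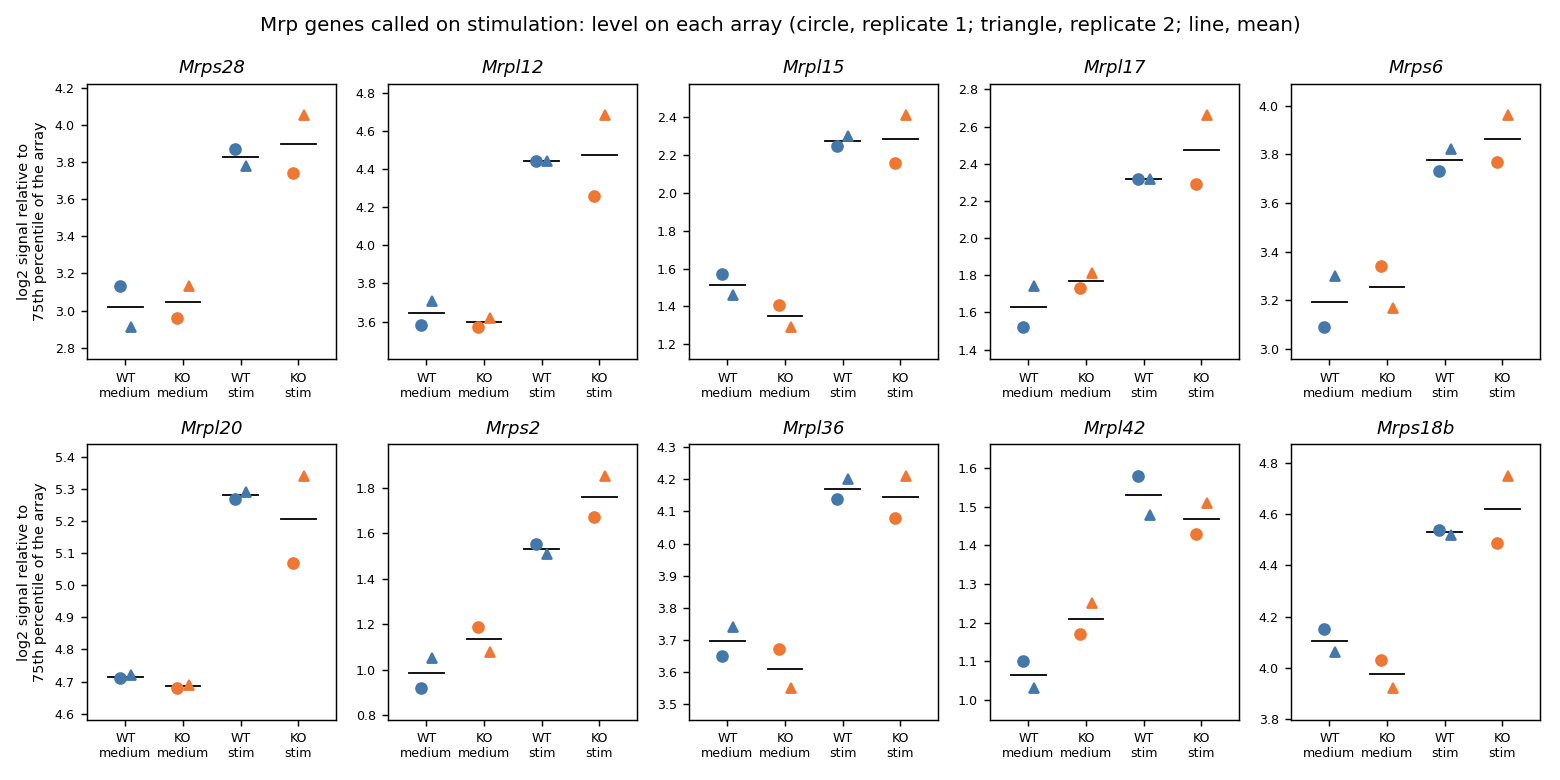
Levels of the 10 Mrp genes called on stimulation in either genotype, on each array (log2 relative to the array's 75th percentile; circles replicate 1, triangles replicate 2, lines group means). For every gene both stimulated arrays of a genotype lie above both of its medium arrays, and the vertical axes differ between panels.

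Among large-subunit proteins with a bacterial relative, Mrpl15 had the largest KO response. Its levels were 1.57 and 1.46 in medium and 2.25 and 2.30 after stimulation in WT, against 1.41 and 1.29 and then 2.16 and 2.41 in KO. It rose by 0.76 ± 0.13 in WT (adjusted p = 0.0225) and 0.94 ± 0.13 in KO (adjusted p = 0.0123), the lowest adjusted p among the Mrp genes in each genotype. Mrpl12 forms the flexible stalk of the large subunit that recruits translation factors. It had levels of 3.58 and 3.71 in medium and 4.44 on both arrays after stimulation in WT, against 3.57 and 3.62 and then 4.26 and 4.68 in KO. It rose by 0.80 ± 0.16 (adjusted p = 0.033) and 0.87 ± 0.16 (adjusted p = 0.0268). Stimulated and medium arrays of these genes did not overlap in either genotype.

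Mrpl17, whose bacterial relative lies near the exit of the peptide tunnel, was at 1.52 and 1.74 in medium and 2.32 on both arrays after stimulation in WT, against 1.73 and 1.81 and then 2.29 and 2.66 in KO. It rose in WT (0.69 ± 0.16, adjusted p = 0.0469). The KO value was 0.71 ± 0.16 with an adjusted p of 0.05029, just outside the threshold. Mrpl20, whose bacterial relative binds ribosomal RNA early in assembly, showed the same division of calls. Its levels were 4.71 and 4.72 in medium and 5.27 and 5.29 after stimulation in WT, against 4.68 and 4.69 and then 5.07 and 5.34 in KO, giving 0.57 ± 0.12 in WT (adjusted p = 0.0421) and 0.52 ± 0.12 in KO (adjusted p = 0.0611). For Mrpl36, one of the smallest ribosomal proteins, the levels were 3.65 and 3.74, then 4.14 and 4.20 in WT, and 3.67 and 3.55, then 4.08 and 4.21 in KO cells, medium before stimulated. It was called in KO (0.54 ± 0.11, adjusted p = 0.0412) and missed the threshold in WT (0.48 ± 0.11, adjusted p = 0.0506). For these 3 genes the responses in the 2 genotypes lay within 1 standard error of each other, so the calls differ by which side of 0.05 close values fell on.

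Of the large-subunit proteins classed as mitochondria-specific, Mrpl42 was the 1 called. It was at 1.10 and 1.03 in medium and 1.58 and 1.48 after stimulation in WT, against 1.17 and 1.25 and then 1.43 and 1.51 in KO. The response was 0.46 ± 0.11 in WT (adjusted p = 0.0481) and 0.26 ± 0.11 in KO (adjusted p = 0.197). The difference between these responses was -0.20 ± 0.15 (adjusted p = 1), so the responses of Mrpl42 were not shown to differ by genotype.

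In the small subunit, the largest response was that of Mrps28, a relative of a bacterial protein that holds messenger RNA. Its levels were 3.13 and 2.91 in medium and 3.87 and 3.78 after stimulation in WT, against 2.96 and 3.13 and then 3.74 and 4.05 in KO. It rose by 0.80 ± 0.16 in WT (adjusted p = 0.031) and 0.85 ± 0.16 in KO (adjusted p = 0.0275). Mrps6, which has a bacterial relative on the platform of the small subunit, was at 3.09 and 3.30 in medium and 3.73 and 3.82 after stimulation in WT, against 3.34 and 3.17 and then 3.77 and 3.96 in KO. Its rises of 0.58 ± 0.14 in WT (adjusted p = 0.04997) and 0.61 ± 0.14 in KO (adjusted p = 0.0492) passed the threshold narrowly.

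Mrps2, another small-subunit protein with a bacterial relative, was at 0.92 and 1.05 in medium and 1.55 and 1.51 after stimulation in WT, against 1.19 and 1.08 and then 1.67 and 1.85 in KO. It rose by 0.55 ± 0.12 (adjusted p = 0.0427) and 0.62 ± 0.12 (adjusted p = 0.0333). Mrps18b is related in sequence to a bacterial protein but is classed as mitochondria-specific by its place in the ribosome. It was at 4.15 and 4.06 in medium and 4.54 and 4.52 after stimulation in WT, against 4.03 and 3.92 and then 4.49 and 4.75 in KO. It rose in KO (0.64 ± 0.13, adjusted p = 0.0371), and its WT value was 0.43 ± 0.13 (adjusted p = 0.0894). No array of 1 condition overlapped the other for either gene.

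Beyond the calls, most members lay on the same side. At an unadjusted p below 0.05 there were 25 of the 77 Mrp genes in WT and 24 in KO, all of them higher on stimulation. Of all genes, 29.5% and 25.4% passed that level in either direction, and the share that was higher was not counted. Both stimulated arrays lay above both medium arrays for 49 Mrp genes in WT (63.6%, against 27.4% of all genes) and 46 in KO (59.7%, against 22.8%). They lay below for 9 (11.7%, against 42.1%) and 8 (10.4%, against 28.6%). All genes tested are not matched to the Mrp genes in signal. On the WT arrays 15002 and 15038 of them were well above background in medium and 14024 and 13856 after stimulation. On the KO arrays the counts were 14729 and 14281, then 14050 and 14260. The Mrp genes were all so on every array. Nor was the shift particular to them. Of respiratory chain and ATP synthase genes, 79.5% in WT and 74% in KO lay above 0, against 75.3% of Mrp genes in each. The lowest responses were those of Mrpl33, a small protein of the large subunit, in WT (-0.24 ± 0.13, adjusted p = 0.293) and of Mrpl58, a peptidyl-tRNA hydrolase built into the large subunit, in KO (-0.33 ± 0.15, adjusted p = 0.232). Neither gene was called. In bulk RNA, more cells carrying a transcript and more transcript per cell cannot be told apart.

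**Figure D3:**
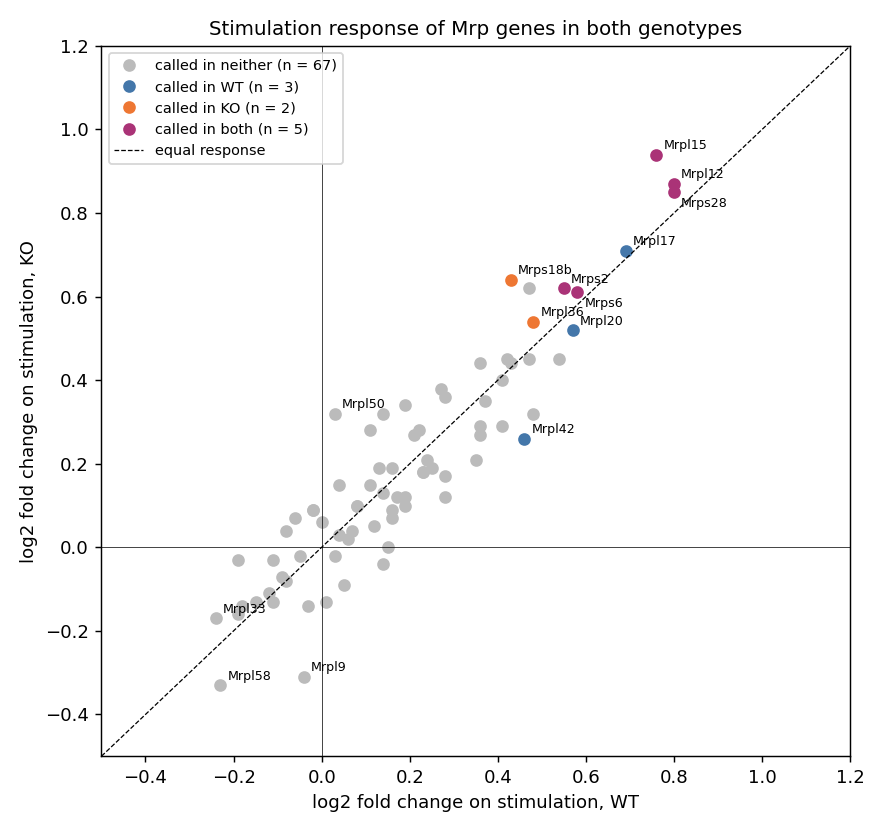
Stimulation response of the 77 Mrp genes in WT (horizontal) and KO (vertical), as log2 fold change; each point is a gene, the dashed line marks equal response, and colour gives the genotype in which the gene was called. Of the points, 53 lie above 0 on both axes and 14 below 0 on both.

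The responses in the 2 genotypes come from separate arrays of the same slide. Across the Mrp genes they had a Pearson correlation of 0.92 and a Spearman correlation of 0.903 (n = 77), and over all genes of 0.82 and 0.749. Genes are not independent replicates, and the values are given as a description. The sign was shared by 67 Mrp genes (87.0%), against 80.3% of all genes. In the other 10 Mrp genes the signs differed, and 0 of those was called.

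By role, the classes were set against the shares of all genes called, 10.3% in WT and 8.13% in KO. Among the 29 tested large-subunit genes with a bacterial counterpart, 4 (13.8%) were called in WT and 3 (10.3%) in KO, with median responses of 0.19 and 0.18. Among the 21 large-subunit genes classed as mitochondria-specific, 1 (4.76%) was called in WT and 0 in KO, with medians of 0.06 and 0.10. The 16 small-subunit genes with a bacterial counterpart had 3 calls (18.8%) in each genotype and medians of 0.26 and 0.18. The 10 small-subunit genes classed as mitochondria-specific had 0 calls in WT and 1 in KO, that of Mrps18b, with medians of 0.10 and 0.19. The shares of calls in these classes were not tested against each other. Mrps36, which is no subunit, had responses of 0.19 and 0.34 and was not called.

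**Figure D4:**
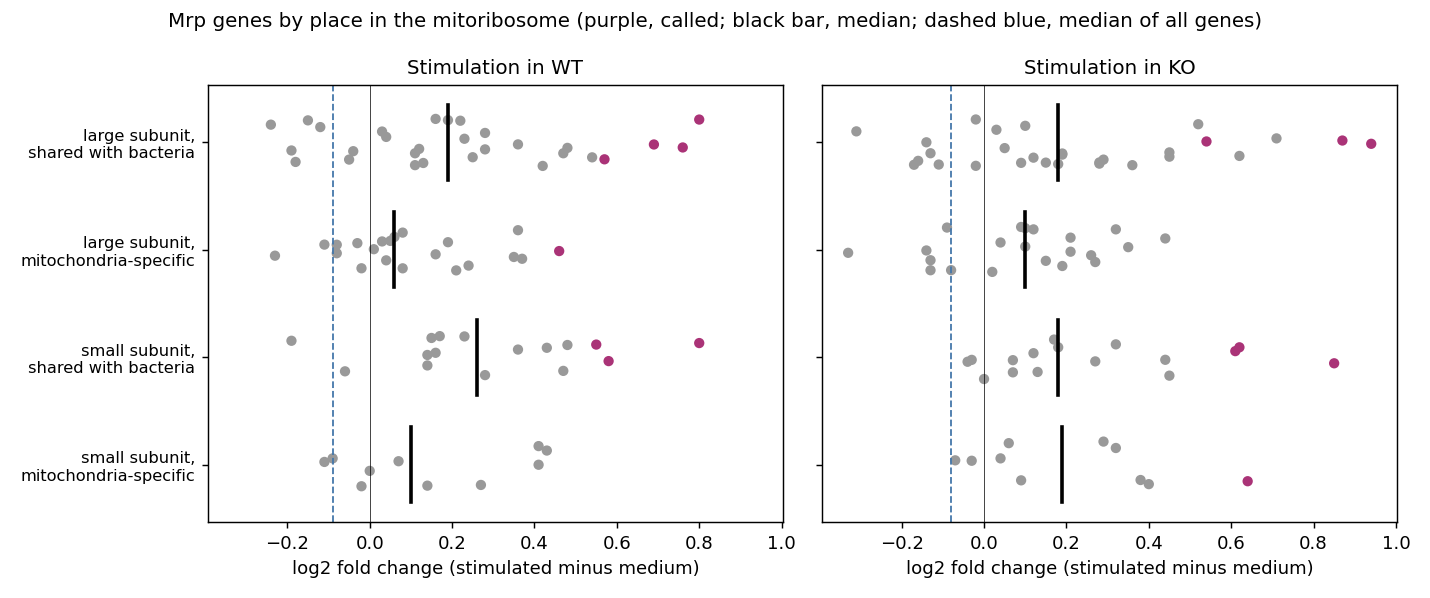
Stimulation response (log2 fold change) of the Mrp genes by place in the mitoribosome, WT on the left and KO on the right; each point is a gene, purple points were called, black bars are class medians and the dashed line is the median of all genes. In each class the median lies above that of all genes (-0.09 in WT and -0.08 in KO).

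The calls rest on few arrays. Leaving out 1 array leaves 1 in its group, and the genes then called were not always those called on all 8 arrays. This holds for the KO calls without stimulated KO replicate 1. There the stimulated KO group is replicate 2 alone, an array with neutrophil, erythroid and cell cycle signal. Without either medium or either stimulated WT array 0 Mrp genes were called in WT, and without either KO medium array 2 were, against 6 without either stimulated KO array. In KO, 0 were called without KO medium replicate 2 or stimulated KO replicate 2, 1 without KO medium replicate 1 or any single WT array, and 8 without stimulated KO replicate 1. Without both KO arrays numbered 2, which carried the neutrophil, erythroid and cell cycle signal, the WT count was 11, the KO count was 0 and the KO median was 0.05. That leaves 1 array per KO group, assumed to vary like the WT groups. The responses of the 7 genes called in KO were then 0.42 to 0.78, with Mrps28 at 0.78, Mrpl15 at 0.75, Mrpl12 at 0.69 and Mrpl36 at 0.42, all above 0 but none past the threshold. The part of the other transcripts in the KO responses was not tested. With no filter on dim probes, which adds genes to the adjustment, 2 were called in KO, and with only the KO groups in the fit 0 were.

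Of the 78 genes, 20 had another probe past the filter, and this probe had the same sign as the main probe for 13 in WT and 13 in KO. Among called genes, Mrps18b and Mrps2 had such a probe. The second probe of Mrps18b gave 0.65 in WT and 0.64 in KO (adjusted p = 0.0385 and 0.0445 over all probes), so that probe passed in WT where the main probe had not. The second probe of Mrps2 gave 0.47 and 0.55 (adjusted p = 0.103 and 0.0842). The other 8 called genes rest on 1 probe each. The widest disagreement, singled out after the values were seen, was Mrps25, a mitochondria-specific small-subunit protein. Its main probe gave 0.41 and 0.40 and its second -0.69 and -0.38, and neither was called. No member had probes called in opposite directions.

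In medium, no Mrp gene was called between KO and WT (limma, 0 of 77), and the smallest adjusted p was 0.737. Over all genes 0.00661% were called, which is 1 gene, Lsp1. At an unadjusted p below 0.05 there were 0 Mrp genes, against 865 genes (5.72%) overall. The 95% intervals of the differences ran from -0.65 to 0.56 over the 77 genes, so a change of 2-fold lay outside the interval of every Mrp gene, and for 67 the interval lay within 0.5 of 0. The median difference was -0.06, the same as over all genes, with 24 genes above 0 and 53 below. Both KO arrays lay below both WT arrays for 24 Mrp genes (31.2%, against 21.3% of all genes) and above for 4 (5.19%, against 12.8%). The 12 B cell markers, relative to WT medium, had medians of 0.21 and -0.21 on the WT and -0.56 and -0.75 on the KO arrays, and the 10 natural killer cell markers 0.08 and -0.08 against -0.44 and -0.62. Their part in the Mrp differences was not tested.

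The lowest difference in medium was that of Mrpl50, a mitochondria-specific large-subunit protein. It was at 2.20 and 1.91 in WT medium and 1.90 and 1.65 in KO medium, a difference of -0.27 ± 0.15 with an interval from -0.65 to 0.10. A second Mrpl50 probe gave -0.04. Mrps18c, a small-subunit protein related to Mrps18b, was at 4.12 and 3.81 in WT and 3.75 and 3.66 in KO medium (-0.26 ± 0.16, interval -0.64 to 0.12). In both genes the KO arrays lay below the WT arrays, and the difference of the means was smaller than that between the 2 WT arrays. Mrps22 (-0.23 ± 0.12) and Mrps16 (-0.22 ± 0.14), small-subunit proteins mutated in inherited mitochondrial disease, and the large-subunit gene Mrpl55 (-0.21 ± 0.14) followed, each with an adjusted p of 0.737.

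After stimulation, 0 of 77 Mrp genes were called between KO and WT, and the smallest adjusted p was 0.932 (limma). The background was 0.0198%, or 3 genes. At an unadjusted p below 0.05 there were again 0 Mrp genes, against 760 genes (5.02%). Intervals ran from -0.53 to 0.55, and for 71 genes lay within 0.5 of 0. The median was -0.05 against -0.04 over all genes, with 20 genes above 0 and 57 below. Stimulated KO arrays lay below stimulated WT arrays for 22 Mrp genes (28.6%, against 24.8%) and above for 4 (5.19%, against 13.2%). Here too B cell marker medians were lower in KO (-1.01 and -0.88, against -0.18 and -0.31), and those of natural killer cells were -0.71 and -0.76 against -0.10 and -0.41.

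Mrps2, whose levels are given above, had the highest difference of the 77, 0.23 ± 0.12 (interval -0.07 to 0.52), but a second Mrps2 probe gave 0.05. Mrps9, a small-subunit protein with a bacterial relative, was at 2.50 and 2.72 in stimulated WT and 2.42 and 2.38 in stimulated KO cells (-0.21 ± 0.13, interval -0.53 to 0.11). The large-subunit genes Mrpl44 (-0.20 ± 0.11), which has an RNase III fold, and Mrpl43 (-0.20 ± 0.10) and the small-subunit gene Mrps14 (-0.19 ± 0.12) were next. Each had an adjusted p of 0.932. Second probes of Mrpl43 and Mrps14 gave 0.00 and -0.16.

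Mrpl23 lies near Lsp1 on chromosome 7, where Prr33 and Tnnt3 separate the genes in RefSeq order. Its protein sits beside the exit of the peptide tunnel. It had levels of 5.01 and 4.88 in WT and 4.91 and 4.70 in KO medium arrays, and of 5.03 and 5.08 in WT and 4.96 and 4.95 in KO arrays after stimulation. KO and WT overlapped in medium, with a difference of -0.14 ± 0.12 (adjusted p = 0.74). After stimulation KO was below WT without overlap, by a difference of -0.10 ± 0.12 (adjusted p = 0.932).

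**Figure D5:**
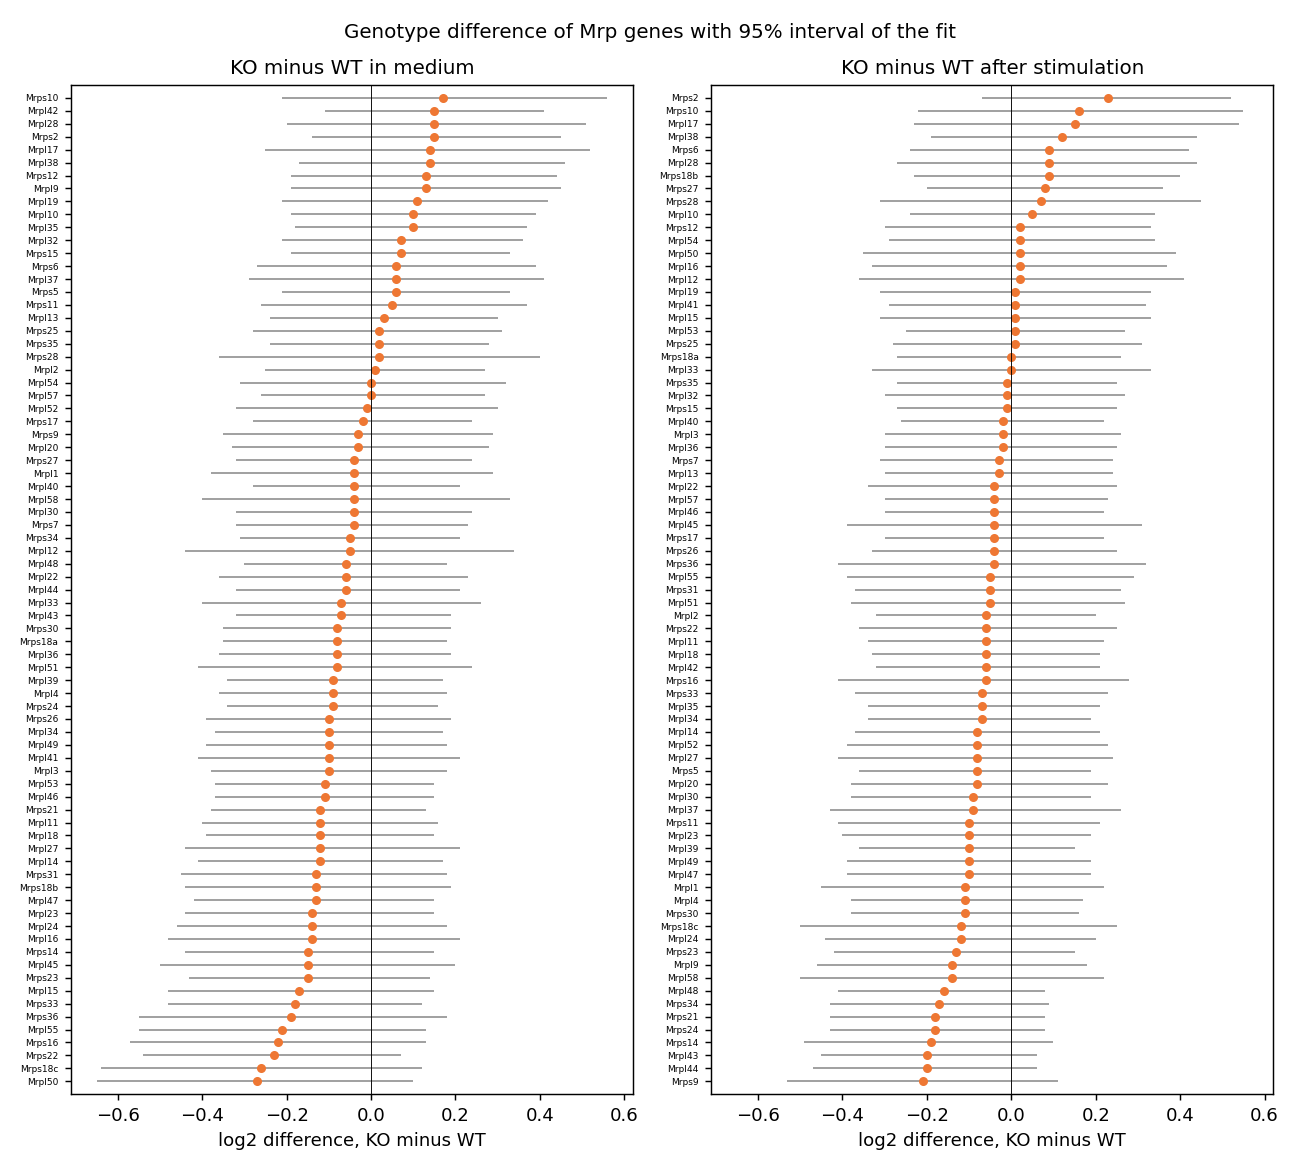
Genotype difference (KO minus WT, log2) of each of the 77 Mrp genes in medium (left) and after stimulation (right); points are the fitted differences and bars their 95% intervals. Every interval holds 0, and all lie between -0.65 and 0.56 in medium and -0.53 and 0.55 after stimulation.

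The test of whether the stimulation response itself differed between genotypes called 0 of 77 Mrp genes, at an adjusted p of 1 for each (limma). Over all genes 1 was called (0.00661%). At an unadjusted p below 0.05 there were 0 Mrp genes and 455 genes overall (3.01%). Intervals of the difference of responses ran from -0.72 to 0.82, with a median of 0.01 against 0.02 over all genes. The highest value was that of Mrpl50 (0.29 ± 0.22), which was at 2.07 and 2.10 in stimulated WT and 2.03 and 2.18 in stimulated KO cells. Its response was 0.03 in WT and 0.32 in KO by this probe, but 0.51 and 0.44 by a second probe, so the difference was not seen with both probes. Mrpl9 had the lowest value (-0.27 ± 0.19). It was at 2.12 and 2.39 in medium and 2.18 and 2.24 after stimulation in WT, against 2.40 and 2.36 and then 2.15 and 1.99 in KO. Mrps18b (0.21 ± 0.18), Mrpl42 (-0.20 ± 0.15) and Mrps9 (-0.18 ± 0.19) came next.

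Genes of the same pathway give the setting of these responses. The 5 tested mitoribosome proteins without an Mrp symbol had 0 calls in either genotype and median responses of 0.25 and 0.30. Dap3, a GTP-binding protein of the small subunit, had 0.07 in WT and 0.04 in KO, and Ptcd3, an RNA-binding protein of the small subunit, 0.29 ± 0.13 and 0.51 ± 0.13 (adjusted p = 0.0653 in KO). Of 28 assembly and ribosomal RNA modification factors, 1 was called higher in WT (3.57%) and 3 in KO (10.7%), and 0 lower. Over all genes tested, 10.3% in WT and 8.13% in KO were called in either direction. Mrm3, a ribosomal RNA methyltransferase, was called in both (0.53 ± 0.12 and 0.74 ± 0.12), and the GTPase Noa1 (0.78 ± 0.16) and Rcc1l (0.71 ± 0.15) in KO. In WT, Noa1 was at 2.13 and 1.77 in medium and 2.46 and 2.49 after stimulation. Rcc1l was at -0.56 and -0.26, then 0.11 and 0.23. The test of the difference of the responses called 0 genes of this list, so these rises were not shown to differ by genotype. The medians of this list were -0.01 and -0.06, near those of all genes.

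Of 16 translation factors, Lrpprc, which stabilises mitochondrial messenger RNA (0.62 ± 0.12), and the elongation factor Tsfm (0.60 ± 0.13) rose in WT, and Pnpt1, an RNA-processing nuclease (0.70 ± 0.14), rose in KO. Of 15 genes for replication and transcription of mitochondrial DNA, Top1mt, the mitochondrial topoisomerase, rose in both (0.63 ± 0.12 and 0.79 ± 0.12). Tefm, a transcription elongation factor, rose in WT (0.47 ± 0.11), and Elac2, which cuts tRNA precursors, rose in KO (0.80 ± 0.14). No gene of these 2 lists was called lower. Each of Lrpprc, Tsfm and Tefm was higher on both stimulated KO arrays than on either unstimulated one, though not called there. Pnpt1 and Elac2 showed the same pattern on the WT arrays, again without a call. For Tsfm in KO, 0.48 and 0.55 became 0.94 and 1.11. For Elac2 in WT, 1.47 and 1.43 became 1.97 and 2.13. The responses of these lists were not shown to differ by genotype, as 0 genes were called for that difference. Responses below 0 numbered 5 in WT and 6 in KO among the translation factors, and 7 and 8 among the mitochondrial DNA genes. Median responses were 0.07 and 0.20 in the first list and 0.05 and -0.02 in the second. The shares called were 12.5% and 6.25% in the first and 13.3% in each genotype in the second. Over all genes tested, 10.3% in WT and 8.13% in KO were called. Among 9 regulators, Myc rose by 3.79 ± 0.26 in WT (adjusted p = 0.00137) and 3.74 ± 0.26 in KO (adjusted p = 0.00145), and the coactivator Pprc1 by 0.98 ± 0.22 and 1.44 ± 0.22. Myc was at 0.25 and 0.54 in medium and 4.18 and 4.19 after stimulation in WT, against 0.35 and 0.71 and then 3.93 and 4.62 in KO. Nrf1 (0.02 ± 0.13 and 0.03 ± 0.13) and Gabpa (0.02 ± 0.14 and -0.08 ± 0.14) were not called. Yy1, whose motif was also counted, was at 3.24 and 2.92 in medium in WT. It was lower on both stimulated WT arrays, at 2.7 and 2.78. In KO its conditions overlapped, with 2.65 on medium replicate 2 and 2.75 on stimulated replicate 1. The medians of the 9 regulators were 0.02 and 0.03, with 6 above 0 and 3 below in each genotype, and 0 were called lower.

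Protein import, which the Mrp proteins depend on, had more calls. Of its 26 genes, 10 were called higher in WT (38.5%) and 9 in KO (34.6%) and 0 lower, with medians of 0.38 and 0.37. The shares called over all genes were 10.3% and 8.13%. The intermembrane space chaperone Timm8a1 rose by 1.41 ± 0.19 and 1.54 ± 0.19, and Timm10 by 1.01 ± 0.19 and 1.38 ± 0.19. The matrix chaperones Hspd1 (1.07 ± 0.20 and 1.29 ± 0.20) and Hspa9 (1.05 ± 0.12 in WT, with an adjusted p of 0.00852 in KO) also rose in both genotypes. Of 73 respiratory chain and ATP synthase genes, whose mitochondrially encoded partners the mitoribosome makes, 1 (1.37%) was called higher in each genotype and 0 lower. That gene was Cycs, the electron carrier cytochrome c (0.85 ± 0.12 and 0.88 ± 0.12), and the list's medians were 0.10 and 0.11. Of 82 cytosolic ribosomal protein genes 1 (1.22%) was called higher and 0 lower in each genotype, with medians of 0.04 in WT and -0.10 in KO. The largest Mrp response was 0.80 in WT and 0.94 in KO. The shares of calls in these lists were likewise not compared by a test.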

How the data were processed

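The deposited files hold linear spot intensities, background-subtracted as the processed signal by Feature Extraction (Agilent, version 10.7.1.1) per the file headers. The deposited value table holds the median spot intensity (0 values differ), uncentred. Of 62976 spots per array, controls (3671) and outlier spots were left out and spots of a probe averaged. The value is log2 of the processed signal minus log2 of the array's 75th percentile (1200 to 1469). Of 55681 probes, the 37257 well above background on the 2 arrays of any group were kept, and 26056 of all probes could be named through RefSeq (GRCm38.p6). Per array 58.4% to 69.2% of probes were well above background. Each gene took its probe with the highest mean. limma 3.58.1 in R 4.3.3 (data.table version 1.17.8) fitted 4 group means and 5 contrasts over all 8 arrays (4 residual and 2.11 prior degrees of freedom) and p-values are two-sided, adjusted by Benjamini-Hochberg over all genes. The script was tested on simulated data. The arrays share 1 slide and 1 scan. Treatment lies along slide rows and genotype along columns, so groups and slide positions cannot be told apart. The number of arrays limits the precision.

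The text names called members, the 5 largest differences between genotypes in each condition and in the response, Mrpl23 as a neighbour of Lsp1, and pathway genes from lists. The members and lists were chosen with earlier results of these data known. Alternatives were another background correction, quantile normalization, the deposited value table, other filters, the mean over probes, other groups in the fit, a replicate block and leaving out arrays. The 2 arrays of a group are the replicates named by the labels. RNA integrity numbers exceeded 9.5 per the labels.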

Additional observations from a re-analysis of the deposited data

How the results depend on the processing

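No called gene changed direction under the alternatives run, and 0 members were called between genotypes or for the difference of responses under them. On stimulation in WT (8 called), leaving out 1 array gave 0 to 6 calls. In KO (7 called), it gave 0 to 8, while normexp on the median signals gave 11, the deposited values gave 11, no filter on dim probes 2, only the KO groups in the fit 0, and leaving out both KO arrays numbered 2 gave 0. The KO calls made without stimulated KO replicate 1 were not all those made on the full set of arrays. Normexp kept 8 of 8 WT calls and 7 of 7 KO calls. It was planned on mean signals, which were not used here, and run on median signals after the data were seen. A replicate block over the 4 groups gave 4 calls in WT and 4 in KO, and a replicate block within genotype gave 11 in KO and 11 in WT. Deviations of same-numbered arrays correlated at 0.743 between the KO groups, 0.162 between the WT groups and -0.244 to -0.0618 between groups of different genotype, so the numbers were not taken as pairing over the 4 groups, and with 2 pairs per genotype they could not be shown to pair within it. The median of the KO response (0.15) was 0.05 without both KO arrays numbered 2 and 0.11 to 0.20 without 1 array. The median difference in medium (-0.06) was -0.01 after quantile normalization. After stimulation (-0.05) it was -0.10 to 0.00 without 1 array. The median difference of responses (0.01), which carries no test, changed sign: it was -0.08 without both KO arrays numbered 2 and -0.06 to 0.06 without 1 array. The Lsp1 difference after stimulation was -3.35 with only the compared groups fitted (adjusted p = 0.0752), -3.33 without both KO arrays numbered 2 (adjusted p = 0.0701) and -3.39 to -3.32 without 1 array. In medium it was -3.79 (adjusted p = 0.0688) and -3.71 (adjusted p = 0.17) under the first and the second of these. The cause of these changes was not tested, beyond the fewer arrays or larger number of genes that the settings themselves bring.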
